A study of Homo sapiens with 4 samples.

Results

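The SRC family tyrosine kinases and the kinases they work with (SRC, LYN, FGR, FYN, LCK and YES1, with CSK, SYK and BTK) were examined in MV4-11, a human AML cell line of monocytic type that carries a FLT3 internal tandem duplication and a KMT2A-AFF1 fusion. The 9 genes were chosen by symbol from this pathway. Of these, 8 have rows in the expression table, among 16490 genes in all, and LCK has no row, so no value is given for it. The RNA-seq data comprise 2 libraries of cells with CEBPG present, infected with a control hairpin (sh-NC), and 2 libraries of cells with CEBPG knocked down by the hairpin sh-CEBPG#3. Both groups carry a lentiviral pLKO.1 hairpin vector and were selected with puromycin as stable lines, and 1 CEBPG hairpin stands for the knockdown. The sources used here do not say if replicate libraries stem from separate infections, so the p-values cover no spread beyond that between these libraries.

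SRC family kinases sit at the inner face of the cell membrane and add phosphate to tyrosines of receptors and adaptors. CSK phosphorylates a tyrosine in their tail and thereby holds them closed, and receptor-type phosphatases such as CD45 (PTPRC) remove that phosphate. Active SRC family kinases phosphorylate the ITAM motifs of immune receptor adaptors, SYK binds these motifs, and BTK and phospholipase C gamma act further down. In myeloid cells LYN and FGR are among the best known family members, and in cells with mutated FLT3 these kinases also relay signals of that receptor.

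Upon CEBPG knockdown the family did not move one way. SRC, YES1 and FGR were higher and LYN was lower, together with the tail kinase CSK and with SYK, while BTK and FYN did not pass the test. The values are FPKM (fragments per kilobase of exon model, relative to the reads mapped in the library), summed over the RefSeq transcripts of a gene, so that levels can be compared between genes per length. A gene was called at a Benjamini-Hochberg adjusted p under 0.05 in limma, fitted on log2(FPKM + 1) over 12142 genes (those whose mean reached 0.5 FPKM), and on this scale the fold changes of low genes come out too small. By this rule 6 of the 8 kinases were called, 3 higher and 3 lower. Among all genes tested 42.2% were called, 18.5% higher and 23.8% lower. The log2 fold changes of the kinases had a median of 0.01, against -0.04 for all genes tested. In limma the variance of each gene is drawn toward that of genes of like level. A p-value thus does not rest on the spread of that gene alone. On log2(FPKM + 1) none of the 8 passed the threshold of the study (a change of more than 1 on the log2 scale in either direction, with an unadjusted p under 0.05), which 3.41% of genes passed, although 6 had an unadjusted p under 0.05 in limma. FGR, 2.14-fold higher in FPKM, lay just under it with 0.96, and with pseudocounts of 0.1 and 0.01 it passed (1.12 and 1.14). The paper applied this threshold to DESeq2 results, so the genes and shares passing it here need not match those of the paper. The sh-NC and sh-CEBPG#3 libraries did not overlap for 8 of the 8 kinases, and the same held for 71.7% of all genes tested. With no filter on low values FGR, CSK and SYK were not called (adjusted p = 0.0652, adjusted p = 0.0605 and adjusted p = 0.0664 in limma over 16490 genes).

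CEBPG itself, the gene targeted by the hairpin, had 30.4 and 33.6 FPKM in sh-NC and 19.2 and 17.1 FPKM in sh-CEBPG#3 libraries, so 56.8% of the control mean remained. Summed FPKM per library ranged from 364353 to 389766, and the depth in reads is unknown. The cells were checked by marker genes. Of 11 markers of the myeloid line 10 had a mean of 0.5 FPKM or more, among them SPI1, CD33, FLT3 and MPO, and their summed level was 926 to 1000 FPKM in sh-NC and 3410 to 3590 FPKM in sh-CEBPG#3 libraries, with LYZ (lysozyme) going from 567 and 610 FPKM to 3130 and 2980 FPKM. Without LYZ the sum was 359 to 394 FPKM in sh-NC and 431 to 462 FPKM in sh-CEBPG#3 libraries. Of the 10, 5 were called higher, 2 lower and 3 not, beside 18.5% higher and 23.8% lower among all genes tested. The transcription factors MEIS1 (6.65 and 7.34 against 3.42 and 3.29 FPKM, log2 fold change -0.87) and HOXA9 (-0.36) were called lower, and FLT3 had 67.6 and 75.0 against 66.0 and 62.8 FPKM and was not called. Of 7 T cell markers only CD5 has a row, at 0.0179 to 0.0901 FPKM in each library. The B cell markers with rows (5 of 7) summed to 3.11 to 3.24 FPKM in sh-NC and 2.85 to 3.04 FPKM in sh-CEBPG#3 libraries, and of these PAX5 was called lower (-0.37). Of 4 NK cell markers 2 have rows, with opposite calls. NCAM1 had 14.1 and 15.1 FPKM in sh-NC and 12.4 and 11.3 FPKM in sh-CEBPG#3 libraries (-0.28, called lower), and NKG7 had 42.2 and 42.3 FPKM against 53.4 and 55.8 FPKM (0.36, called higher). The 5 erythroid markers have no row, and the 2 of 6 epithelial and fibroblast markers with rows stayed at 0.134 FPKM or below in sum. The part of the change in myeloid markers in the kinase values was not tested. In bulk RNA a change in the mix of cell states and a change of RNA per cell cannot be told apart.

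**Figure D1:**
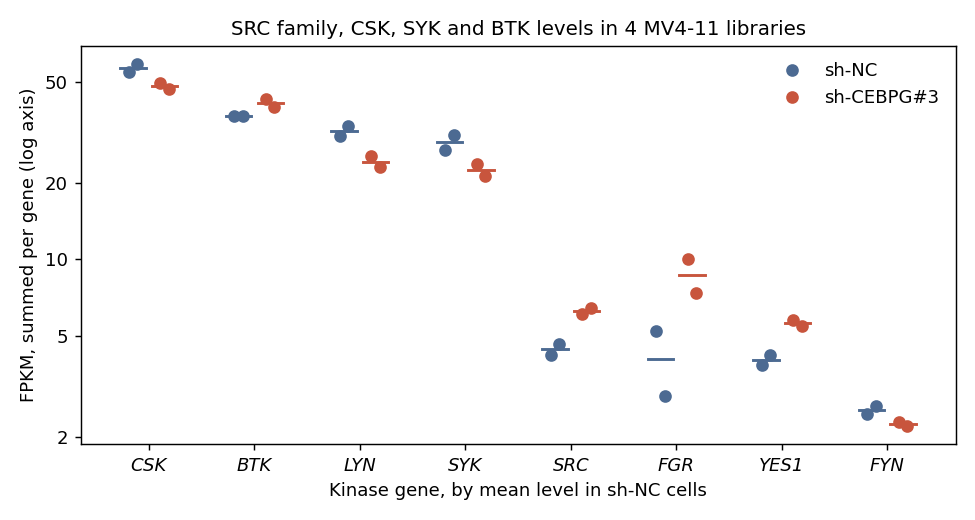
Levels of the 8 kinase genes in FPKM on a log axis, with 1 point per library and a short line at the group mean (n = 2 each for sh-NC and sh-CEBPG#3). CSK, BTK, LYN and SYK lie between 21.2 and 58.7 FPKM, SRC, FGR, YES1 and FYN between 2.2 and 9.98 FPKM.

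The kinases fell into an abundant and a low group. In sh-NC cells CSK was highest with 54.4 and 58.7 FPKM, followed by BTK, LYN and SYK, and the ranges of LYN and SYK overlapped. SRC, FGR and YES1 followed, where the range of FGR (2.89 to 5.21 FPKM) covered those of SRC and YES1, and FYN was lowest. Among all genes tested CSK lay at the 91.8 percentile of mean level and FYN at the 21.3 percentile. In sh-CEBPG#3 cells the order was the same except that FGR, now 7.33 and 9.98 FPKM, stood above SRC, and LYN and SYK were the only neighbours in that order whose ranges overlapped.

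LYN, the SRC family kinase that both starts and restrains signals in B cells and myeloid cells, was the most abundant of the family members named above. It lies on chromosome 8 from 55879835 to 56014169 (RefSeq on GRCh38.p14, which gives all gene positions here). LYN had 30.6 and 33.6 FPKM in sh-NC and 25.4 and 23.1 FPKM in sh-CEBPG#3 libraries. Both knockdown libraries were below both control libraries. The mean fell from 32.1 ± 2.11 to 24.2 ± 1.65 FPKM (SD, n = 2 each), with a log2 fold change of -0.39 (standard error 0.08, adjusted p = 0.00441 in limma). Without sh-CEBPG#3 replicate 2 the log2 fold change was -0.32 and the adjusted p = 0.0505 in limma, just past the limit.

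LYN is listed by 2 transcripts that differ by a short stretch of the coding sequence. NM_002350, the longer form LYN A, had 18.4 and 18.7 FPKM in sh-NC and 14.8 and 11.6 FPKM in sh-CEBPG#3 libraries. NM_001111097, the shorter form LYN B, had 12.2 and 14.8 FPKM against 10.6 and 11.5 FPKM. For both forms the knockdown libraries lay below the control libraries. LYN A made up 60.2% and 55.9% of the gene's FPKM in sh-NC and 58.3% and 50.3% in sh-CEBPG#3 libraries, so the shares overlapped between the groups.

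FGR, a SRC family kinase restricted largely to myeloid cells, had the largest log2 fold change of the 8 kinases. It lies on chromosome 1 from 27612064 to 27635185 and is listed by 1 transcript, NM_001042747. FGR had 5.21 and 2.89 FPKM in sh-NC and 9.98 and 7.33 FPKM in sh-CEBPG#3 libraries. The groups did not overlap, but the libraries within each group were far apart. The means were 4.05 ± 1.64 and 8.65 ± 1.87 FPKM (SD, n = 2 each), a 2.14-fold higher level, with a log2 fold change of 0.96 (standard error 0.20, adjusted p = 0.0033 in limma). Of all genes tested 3.9% had a larger absolute log2 fold change. Its size rested on single libraries, and without sh-NC replicate 2 it was 0.62, without sh-CEBPG#3 replicate 1 it was 0.76, and without sh-NC replicate 1 and without sh-CEBPG#3 replicate 2 it was 1.30 and 1.16, past the threshold of the study.

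The 3 genes with levels most like those of FGR were ARSA, FCGR1CP and SNORA81, by the Euclidean distance of log2(FPKM + 1) over the 4 libraries (0.41, 0.41 and 0.42). ARSA, a lysosomal sulfatase, went from a mean of 4.1 to 8.48 FPKM. FCGR1CP went from 4.13 to 9.13 FPKM, and as a near copy of FCGR1A it may share reads with that gene.

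SRC, the founding member of the family, lies on chromosome 20 from 37344699 to 37406050 and is listed by NM_198291. It had 4.19 and 4.64 FPKM in sh-NC and 6.1 and 6.41 FPKM in sh-CEBPG#3 libraries. The knockdown libraries were above the control libraries by more than the spread within either group. The means were 4.42 ± 0.324 and 6.25 ± 0.215 FPKM (SD, n = 2 each), 1.42-fold higher, with a log2 fold change of 0.42 (standard error 0.10, adjusted p = 0.00588 in limma). YES1, its closest relative, which is found in most tissues, lies on chromosome 18 from 721588 to 812753 and is listed by NM_005433. It had 3.84 and 4.18 FPKM against 5.76 and 5.48 FPKM, also without overlap. It differed by 0.40 on the log2 scale (standard error 0.10, adjusted p = 0.00757 in limma).

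FYN, which signals in T cells and the nervous system and is also present in other blood cells, lies on chromosome 6 from 111660332 to 111873452. It had 2.46 and 2.65 FPKM in sh-NC and 2.29 and 2.2 FPKM in sh-CEBPG#3 libraries. Its log2 fold change was -0.13 with a 95% interval from -0.38 to 0.11 (adjusted p = 0.351 in limma), so no difference was called. Its 2 transcripts pointed in opposite directions. NM_002037, the form named FYN B after the brain, had 1.84 and 1.61 FPKM against 1.27 and 1.08 FPKM, and NM_153047, the form named FYN T after T cells, had 0.627 and 1.04 FPKM against 1.01 and 1.12 FPKM. FYN T held 25.4% and 39.2% of the gene's FPKM in sh-NC and 44.3% and 50.8% in sh-CEBPG#3 libraries. In the fit per transcript neither form passed (log2 fold changes -0.32 and 0.18, adjusted p = 0.297 and adjusted p = 0.62 in limma).

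**Figure D2:**
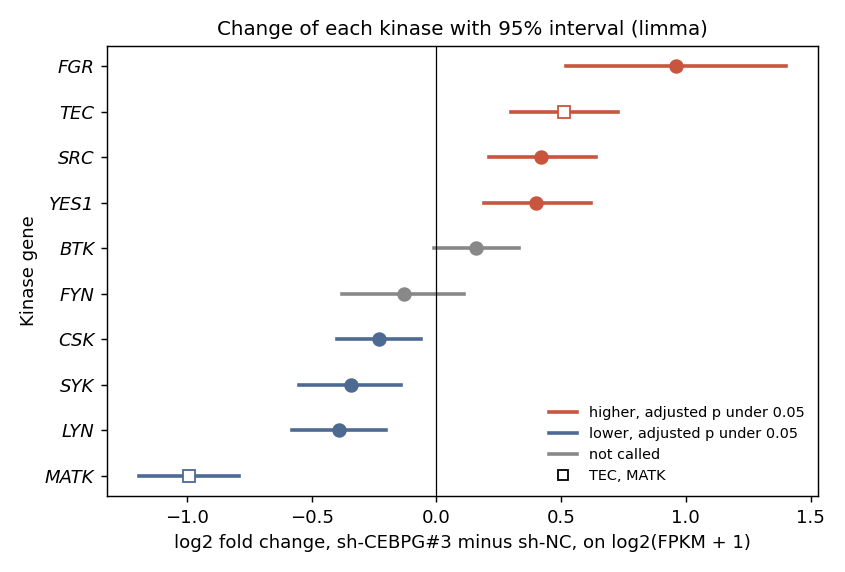
Log2 fold change of each kinase gene (sh-CEBPG#3 minus sh-NC, on log2(FPKM + 1)) with its 95% interval from limma, for the 8 kinases (filled) and TEC and MATK (open squares). Intervals of FGR, SRC and YES1 lie above 0, those of CSK, SYK and LYN below 0, and those of BTK and FYN span it.

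CSK, the kinase that phosphorylates the inhibitory tail tyrosine of the SRC family, lies on chromosome 15 from 74782080 to 74803197. CSK had 54.4 and 58.7 FPKM in sh-NC and 49.4 and 46.8 FPKM in sh-CEBPG#3 libraries. The groups did not overlap and the means, 56.6 ± 3.03 and 48.1 ± 1.88 FPKM (SD, n = 2 each), differed by more than either SD. The log2 fold change came to -0.23 (standard error 0.08, adjusted p = 0.0329 in limma). This call was not stable, since the adjusted p was 0.102 without sh-NC replicate 2, 0.0975 without sh-CEBPG#3 replicate 1 and 0.234 without sh-CEBPG#3 replicate 2, with log2 fold changes of -0.18, -0.27 and -0.19. NM_004383 gave at least 98.7% of its FPKM in each library. The minor transcript NM_001127190 had 0.472 and 0.776 FPKM in sh-NC and is listed at 0 and 0.0555 FPKM in sh-CEBPG#3 libraries.

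SYK, the kinase that docks on phosphorylated ITAM motifs, lies on chromosome 9 from 90801600 to 90898549. SYK had 26.8 and 30.9 FPKM in sh-NC and 23.8 and 21.2 FPKM in sh-CEBPG#3 libraries. Both knockdown libraries were lower, with 78% of the control mean. Its change on the log2 scale was -0.34 (standard error 0.09, adjusted p = 0.0138 in limma), and without sh-CEBPG#3 replicate 2 it was -0.26 and no longer passed (adjusted p = 0.118 in limma). NM_003177 gave at least 92.8% of its FPKM in each library. NM_001135052 is listed at 0 FPKM in sh-NC replicate 1 and had 2.18 FPKM in sh-NC replicate 2, against 0.873 and 0.855 FPKM after knockdown, so the libraries of the control group differed more than the groups. NM_001174168 had at most 0.03 FPKM.

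BTK, the TEC family kinase that phosphorylates phospholipase C gamma, lies on chromosome X from 101349450 to 101390796. BTK had 36.7 and 36.7 FPKM in sh-NC and 42.7 and 39.6 FPKM in sh-CEBPG#3 libraries. The knockdown libraries lay above the control libraries, with a mean of 1.12-fold. The log2 fold change of 0.16 had a 95% interval from -0.01 to 0.33 and did not pass (adjusted p = 0.112 in limma), and of the settings run it passed with quantile normalization only (0.15, adjusted p = 0.0394). BTK and SYK thus lay on different sides of 0, and the ratio of BTK to SYK in FPKM was 1.37 and 1.19 in sh-NC and 1.8 and 1.87 in sh-CEBPG#3 libraries. Its other transcript, NM_001287345, had at most 0.0355 FPKM.

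The sequences before the start sites are shown because CEBPG is a DNA-binding factor. Those of FGR, SYK and BTK are printed, which had different outcomes here (higher, lower and not called). RefSeq windows (GRCh38.p14) of 250 bases before an annotated start were found for 7 of the 9 kinases, 15 windows in all, and not for SRC and LYN. They were searched on both strands for a C/EBP site (TTGCNNAA), a composite site of C/EBP and ATF factors (TGATGNAA), an interferon-stimulated element (GAAANNGAA), a PU.1 site (GAGGAAGT) and the CCAAT box. Windows of the kinases held a C/EBP site in 2 cases, a PU.1 site in 2 and a CCAAT box in 2, and no composite or interferon-stimulated element. Of all 35116 windows 9.05% hold the C/EBP site, 3.14% the composite site, 6.88% the interferon-stimulated element, 2.17% the PU.1 site and 32% the CCAAT box. A match is only a match of letters. Capitals mark the matches, each sequence is read along the strand of its gene, and the SYK start concerned lies within the annotated gene, so only 30 bases around each match are given.
BTK, chrX:101390797-101391046, minus strand, with 2 PU.1 matches: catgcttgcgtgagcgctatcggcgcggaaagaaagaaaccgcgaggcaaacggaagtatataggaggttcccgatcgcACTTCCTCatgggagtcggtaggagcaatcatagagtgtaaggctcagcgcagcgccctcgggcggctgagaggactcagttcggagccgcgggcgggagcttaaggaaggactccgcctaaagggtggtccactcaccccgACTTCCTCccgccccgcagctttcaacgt
SYK, chr9:90801726-90801755, plus strand, with a PU.1 match: cgcgacactggGAGGAAGTgcgggccgcct
SYK, chr9:90801765-90801794, plus strand, with a C/EBP match: cgttaaggaagTTGCCCAAaatgaggaaga
FGR, chr1:27635186-27635435, minus strand, with no match: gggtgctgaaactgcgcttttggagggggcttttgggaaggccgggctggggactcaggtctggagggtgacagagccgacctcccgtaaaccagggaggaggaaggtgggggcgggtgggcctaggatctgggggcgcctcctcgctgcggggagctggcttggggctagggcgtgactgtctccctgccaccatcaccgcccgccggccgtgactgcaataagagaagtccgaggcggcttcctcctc

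BTK, which was not called, thus has a pair of PU.1 matches before its start, and SYK, which was lower, has 1 PU.1 match and 1 C/EBP match. FGR, with the largest increase, has no match in either of its 2 windows. YES1, called higher, and CSK, called lower, have no match in their windows either. The other C/EBP match lies before a downstream start of FYN. SPI1, the gene of PU.1, had 114 and 125 FPKM in sh-NC and 157 and 144 FPKM in sh-CEBPG#3 libraries and was called higher. Whether either factor binds at these places was not tested.

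The make-up of the SRC-type kinases examined here was described from their FPKM values, which are per length of transcript. LYN, FGR, SRC, YES1 and FYN together gave 46.3 and 47.9 FPKM in sh-NC and 49.5 and 44.5 FPKM in sh-CEBPG#3 libraries, so their sum overlapped between the groups.

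Within this sum LYN held 66.1% and 70.0% in sh-NC and 51.3% and 51.9% in sh-CEBPG#3 libraries. FGR held 11.3% and 6.03% against 20.1% and 16.5%. SRC held 9.05% and 9.69% against 12.3% and 14.4%, and YES1 8.30% and 8.71% against 11.6% and 12.3%. These groups did not overlap, and LYN remained the most abundant of the 5 in every library. In level, the groups did not overlap for 71.7% of all genes tested. The shares are parts of the same sum and rest on the gene values given above. A lower LYN share thus comes with higher shares of others and is no separate evidence. FYN held the lowest share in every library, with 5.33% and 5.53% against 4.62% and 4.94%, also without overlap. CSK per FPKM of the sum was 1.18 and 1.23 in sh-NC and 0.998 and 1.05 in sh-CEBPG#3 libraries. No test was run on these shares, and with 2 libraries per group an exact permutation test could not reach 0.05.

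**Figure D3:**
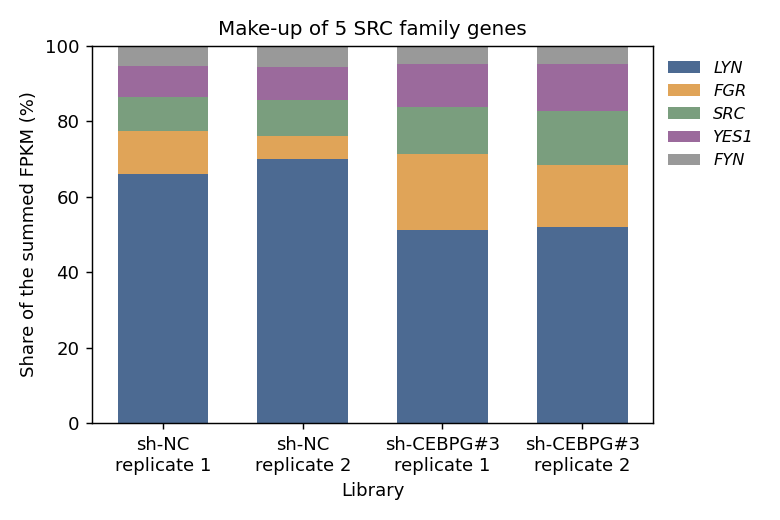
Share of each gene in the summed FPKM of LYN, FGR, SRC, YES1 and FYN, as stacked bars in percent for each of the 4 libraries. The LYN share is 66.1% and 70.0% with the control hairpin, against 51.3% and 51.9% after knockdown, where FGR, SRC and YES1 hold larger shares.

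Fitted one by one among 18624 transcripts, none of the 11 kinase transcripts whose mean reached 0.5 FPKM was called by limma at an adjusted p under 0.05, which 8.24% of all transcripts tested reached. At an unadjusted p under 0.05 there were 6, the main transcripts of SYK, YES1, SRC, CSK and FGR and LYN A, against 28.5% of all transcripts. The 6 had the direction of their genes. Apart from LYN A, each gives at least 92.8% of its gene's FPKM in each library, so this was nearly fixed in advance. For SRC, FGR and YES1, each listed by 1 transcript, the log2 fold changes are the same values as per gene and the adjusted p = 0.102, 0.125 and 0.113 in limma. The standard error of FGR was 0.29 in this fit and 0.20 per gene, since limma borrows variance from other rows.

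**Figure D4:**
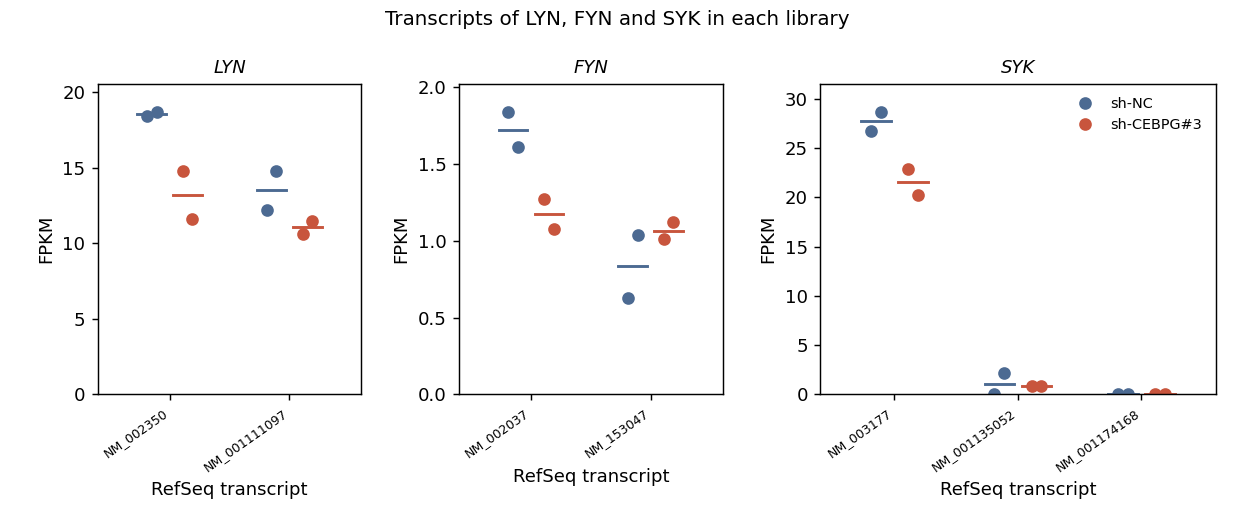
FPKM of each RefSeq transcript of LYN, FYN and SYK, with 1 point per library and a short line at the group mean (n = 2 each). Both LYN forms are lower in sh-CEBPG#3 libraries, the means of the FYN forms lie in opposite directions, and NM_003177 of SYK is lower (22.9 and 20.3 FPKM against 26.8 and 28.7 FPKM).

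The genes around these kinases were taken from a list of 66 in 6 roles, of which 61 have rows and 55 were tested. Of these 17 were called higher and 9 lower, beside 42.2% called among all genes tested, and their median log2 fold change was 0.07. When the most abundant transcript stood for a gene, 10 of 53 tested were called, beside 8.24% called among all transcripts tested. Those named are the 3 with the lowest adjusted p of a role and any past the threshold of the study. Among the relatives of SYK, BTK and CSK, MATK, the CSK-type kinase that also phosphorylates the tail of the SRC family, had 11.9 and 12.6 FPKM in sh-NC and 5.51 and 5.85 FPKM in sh-CEBPG#3 libraries. The difference was -0.99 on the log2 scale (standard error 0.09, adjusted p = 1.92e-05 in limma). CSK, the other tail kinase, was also called lower, but its call was not stable, as given above. TEC, the relative of BTK, went from 4.13 and 3.88 to 5.86 and 6.43 FPKM (log2 fold change 0.51, adjusted p = 0.00215). BLK, FRK and BMX have no row, and TXK and ZAP70 were below the filter.

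Of 18 tail phosphatases and brakes, 4 were called higher, 2 lower and 12 not called. The shares over all genes tested were 18.5% higher and 23.8% lower. UBASH3B, a phosphatase that acts on SYK and ZAP70, had 14.5 and 15.9 FPKM in sh-NC and 5.21 and 4.67 FPKM in sh-CEBPG#3 libraries (log2 fold change -1.45, adjusted p = 2.36e-06 in limma) and passed the threshold of the study. PTPRE, a receptor-type tyrosine phosphatase, had 5.98 and 6.17 FPKM against 13.2 and 12.9 FPKM (0.99, adjusted p = 1.46e-05). CBL, a ubiquitin ligase for active tyrosine kinases, rose by 0.46 (adjusted p = 0.0023). PTPRC, named here for its role after its values were seen, had 7.55 and 7.75 FPKM against 9.89 and 8.18 FPKM and was not called (0.21, adjusted p = 0.123).

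Of the 8 ITAM adaptors and receptors, 5 were tested, 4 were called higher and 3 passed the threshold of the study. Over all genes tested, 18.5% were called higher and 3.41% passed that threshold. This list was chosen with earlier results of these data known, and no set test was run. FCER1G, the Fc receptor gamma chain with an ITAM, had 0.757 and 0.75 FPKM in sh-NC and 5.46 and 6.26 FPKM in sh-CEBPG#3 libraries (log2 fold change 1.97, adjusted p = 1.1e-06 in limma). TYROBP, the adaptor DAP12 with an ITAM, had 96.5 and 113 FPKM against 213 and 222 FPKM (1.05, adjusted p = 8.97e-06). TREM2, a receptor that signals through TYROBP, had 1.33 and 1.43 FPKM against 6.23 and 6.91 FPKM (1.67, adjusted p = 2.1e-06). SYK, which binds these adaptors, was lower in the same libraries, as given above.

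Of 12 adaptors and scaffolds tested, 3 were called higher and 3 lower, beside 18.5% and 23.8% of all genes tested. LAT, the scaffold best known from T cells, went from 4.83 and 4.45 to 2.7 and 2.58 FPKM (log2 fold change -0.63, adjusted p = 0.000815 in limma). PIK3AP1, which links these kinases to PI3K, and GRB2, which links them to RAS, rose by 0.46 and 0.39 (adjusted p = 0.00113 and adjusted p = 0.00199). Of 18 effectors and substrates, 5 were called higher and 3 lower, beside 18.5% and 23.8% of all genes tested. DAPP1, an adaptor that SRC family kinases phosphorylate at the membrane, had 4.6 and 5.34 FPKM against 12.2 and 11.9 FPKM (1.13, adjusted p = 1.3e-05) and passed the threshold of the study. PLCG1 had 3.69 and 3.93 FPKM against 1.55 and 1.35 FPKM (-0.97, adjusted p = 9.65e-05), and VAV2, a guanine nucleotide exchange factor, fell by 0.48 (adjusted p = 0.00209). PLCG2, the form that SYK and BTK act on in blood cells and named here after its values were seen, had 13.4 and 13.7 FPKM against 9.79 and 9.8 FPKM (-0.43, adjusted p = 0.00211).

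**Figure D5:**
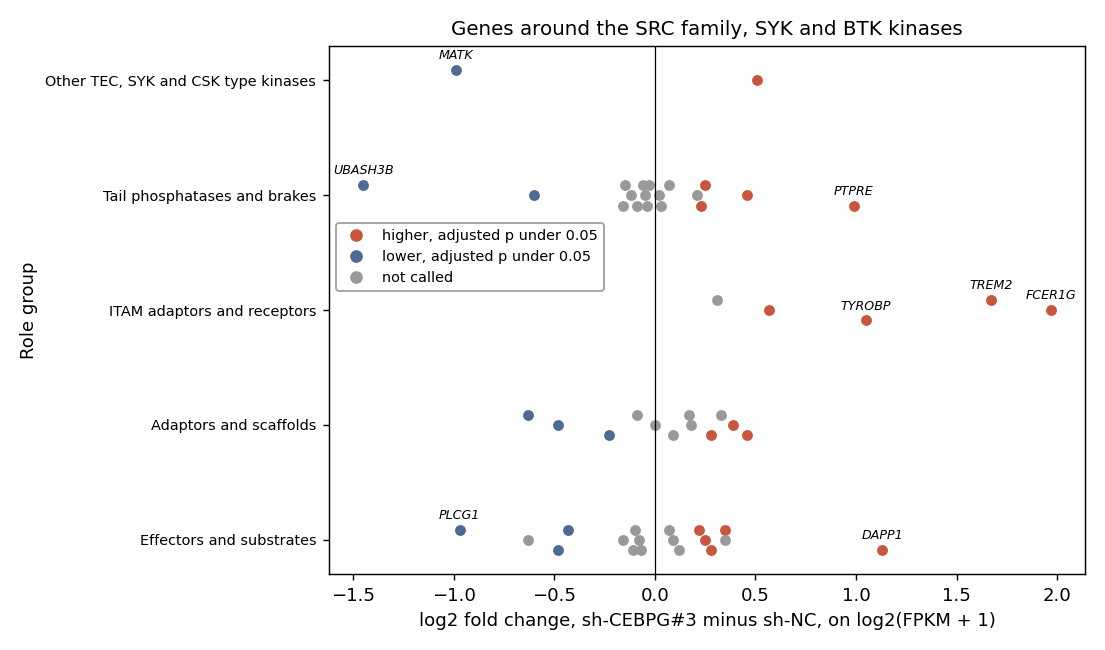
Log2 fold change (sh-CEBPG#3 minus sh-NC, on log2(FPKM + 1)) of the 55 tested genes around the kinases, 1 point per gene in rows by role, coloured by the call of limma. The ITAM adaptors FCER1G (1.97) and TYROBP (1.05) and the receptor TREM2 (1.67) lie farthest right beside DAPP1 (1.13), and UBASH3B (-1.45), MATK (-0.99) and PLCG1 (-0.97) farthest left.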

How the data were processed

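MV4-11 RNA-seq of sh-NC and sh-CEBPG#3 cells (2 libraries each) was used. Reads were filtered by the authors and mapped with HISAT (HISAT2 2.0.5 and hg38 in the submitters' processing notes), and FPKM values were deposited for each RefSeq transcript. The program that computed the FPKM values is not given in the sources used here, and no count test was run. FPKM carry no counts, and among low transcripts the commonest ratio between 2 libraries of a group was shared by at most 0.97%, so no steps of whole reads were seen. Transcripts were summed by symbol, and the 12142 genes whose mean reached 0.5 FPKM were compared on log2(FPKM + 1) with limma 3.58.1 (R 4.3.3, eBayes with a trend, no block), with Benjamini-Hochberg adjustment over all genes. The fit was also run on simulated data with independent libraries and few genes changed, which cannot show how many calls here are false. Members, lists and tests were chosen with earlier results of these data known. The rule for named genes was all kinases, their transcripts, the targeted gene, the 3 lowest adjusted p per role and any gene past the threshold of the study. Pseudocounts, filters, scalings, the replicate number as a block, single transcripts and each library left out were the alternatives. Fold changes with a library left out were planned, while the p-values and calls of these fits, the unadjusted counts of transcripts and the alternatives for CEBPG were added after the data were seen. With a library left out, the lone library of its group is assumed to vary like those of the other group. Promoter windows come from RefSeq. Some genes of the pathway are not reported here.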

Additional observations from a re-analysis of the deposited data

How the results depend on the processing

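The direction of each of the 8 kinases was the same in all 8 other settings and with each of the 4 libraries left out. Since the groups did not overlap, the pseudocounts, filters, block and left-out libraries could not have reversed it. Only the scalings could have, and single transcripts for genes listed by more than 1. Of the 8 kinases, 6 were called, beside 42.2% of all genes tested. With no filter on low values 3 were called (SRC, LYN and YES1). When each gene was taken by its most abundant transcript 0 were called (limma, 6 of these at an unadjusted p under 0.05). With a library left out 3 to 6 were called, the lowest without sh-CEBPG#3 replicate 2 (SRC, FGR and YES1). Around them 26 of 55 genes were called, beside 42.2% of all genes tested. Per transcript 10 of 53 were called, where 8.24% of all transcripts tested were called. Of the kinase transcripts 0 were called, and 2 (SYK NM_003177 and CSK NM_004383) with quantile normalization and 2 with equal totals. At an unadjusted p under 0.05 there were 6, beside 28.5% of all transcripts tested. Same-numbered libraries deviated with a correlation of 0.061 across genes. No pairing by number was seen on this measure, which cannot show whether same-numbered libraries share a culture or infection. With the replicate block 5 kinases were called, without CSK (adjusted p = 0.119 in limma), and 22 genes around them. For the other filters, the scalings, the block and the left-out libraries, the shares of all genes and transcripts called are not given here. A change in these counts may thus be one of the whole table. CEBPG was called in every setting (-0.87 to -0.70). For these shifts the cause was not tested. Without read counts, the low kinases cannot be weighted by their depth.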
